A study of Mus musculus with 4 samples.

Results

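The genes of glucose breakdown and of the response to low oxygen were followed in mouse embryonic stem cells that had been directed towards mesoderm for 3 days. The list held 42 genes, chosen by symbol, and all 42 were found among the 51826 genes of the table. It comprises 18 genes for the enzymes that lead from glucose to lactate, 4 membrane transporters, 4 kinases that steer glycolytic flux, 4 genes of oxygen sensing and 12 further targets of the hypoxia response. All 42 averaged 1 or more TPM, a measure of abundance that corrects for the length of each transcript and gives every library the same total, and entered the test.

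The comparison was between wild-type and Stk40-/- (mutant) cells, both on a C57BL/6 background, with 2 libraries each. Stk40 encodes a pseudokinase, and the study asks how its loss affects c-JUN protein and the formation of mesoderm. All cells had been kept on feeder fibroblasts with LIF and 2 kinase inhibitors, moved to gelatin for a passage, exposed to BMP4 at 10 ng/ml in medium with 1% serum replacement for 2 days, and then to CHIR99021 at 1 uM with 0.5% DMSO and 15% serum replacement until collection on day 3. The labels name neither separate cultures nor more than 1 line per genotype, so the p-values cover no more than the spread among these samples, which may be technical, and genotype and line cannot be told apart.

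Stk40 itself stood at 28.9 and 39.9 TPM in wild type but at 3.54 and 3.17 TPM in mutant cells. The libraries listed 21950 to 22803 genes above 0, with 8.62% to 10.1% of TPM in mitochondrially encoded genes and 16.7% to 18.03% in ribosomal protein genes. Of 12 markers of the primitive streak and early mesoderm, 3 (Lhx1, Tbx6 and Mesp1) averaged under 1 TPM, and Mesp1 was listed at 0 in 3 of the 4 libraries. The summed level of the 12 was 1458 and 768 TPM in wild type and 492 and 324 TPM in Stk40-/- cells. Of 9 tested, 8 were lower without overlap, against 16.6% of all tested genes. The 10 pluripotency markers summed to between 1197 and 1337 TPM in the 4 libraries. Single genes among these 10 moved in both directions, with log2 fold changes from -0.98 to 0.66. Without overlap 3 were higher and 2 lower, against 27.5% and 16.6% of all tested genes. The 10 feeder fibroblast markers summed to 49.7 and 79.0 TPM in wild type and to 46.2 and 46.9 TPM in Stk40-/- cells (Postn, Dcn and Lum under 1 TPM). Of 7 tested, 3 were lower without overlap and 6 negative in fold change, against 16.6% and 41.4% of all tested genes. The 10 blood and endothelial markers summed to 11.9 and 11.8 TPM in wild type and to 10.5 and 10.7 TPM in Stk40-/- cells (Hbb-bh1 and Emcn listed at 0 throughout). Of these 10, 7 averaged under 1 TPM, and 1 of the 3 tested was lower without overlap, against 16.6% of all tested genes. The 10 neuroectoderm markers summed to 95.02 and 105 TPM in wild type and to 142 and 167 TPM in Stk40-/- cells. Of 7 tested, 5 were higher without overlap, against 27.5% of all tested genes. The summed streak and feeder fibroblast markers were thus lower and the summed neuroectoderm markers higher in both Stk40-/- libraries. The blood and endothelial sum was also lower, but it rested on genes at low levels. The part of these markers in the results below was not tested. In such bulk samples a change in the mixture of cells and a change in RNA per cell cannot be told apart.

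Glycolysis splits glucose into pyruvate through a fixed series of cytosolic enzymes, and lactate dehydrogenase then turns pyruvate into lactate, which monocarboxylate transporters carry across the membrane. Pluripotent stem cells rely strongly on this route even in the presence of oxygen. When oxygen falls, the prolyl hydroxylases encoded by the Egln genes stop marking the HIF alpha subunits for destruction, and HIF dimers bind a short DNA core, ACGTG or GCGTG, near genes for glucose transport, glycolysis, mitophagy and blood vessel growth.

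Most of the enzyme genes were higher in both Stk40-/- libraries than in both wild-type libraries. This held for 15 of the 18 enzymes (83.3%), against a background of 27.5% of all 15739 tested genes with 0 enzymes below, and for 13 enzymes with 2 below (Eno2 and Ldhb) when each library was divided by its median ratio to the geometric mean over genes (median-ratio scaling). Among 1513 abundant genes, those averaging 100 TPM or more, the background was 33.3%. Across all 42 genes 25 lay above and 2 below, the latter against a background of 16.6%, and these counts were 19 and 4 under median-ratio scaling (backgrounds 20.6% and 21.9%). The fold change was positive in 37 of the 42, against 58.6% of tested genes, and negative in 5, against 41.4%. The differences were small, with a median log2 fold change of 0.30 over the 18 enzymes (on the log2(TPM + 1) scale, Stk40-/- against wild type) beside 0.07 over all tested genes. In limma 0 of the 42 genes passed an adjusted p of 0.05, and the background was 0.00% in either direction. At an unadjusted p under 0.05, 14 of the 42 were higher and 0 lower, against backgrounds of 6.48% and 4.51%. The members were chosen with results of these libraries known, so these counts are a description and are not independent evidence.

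**Figure D1:**
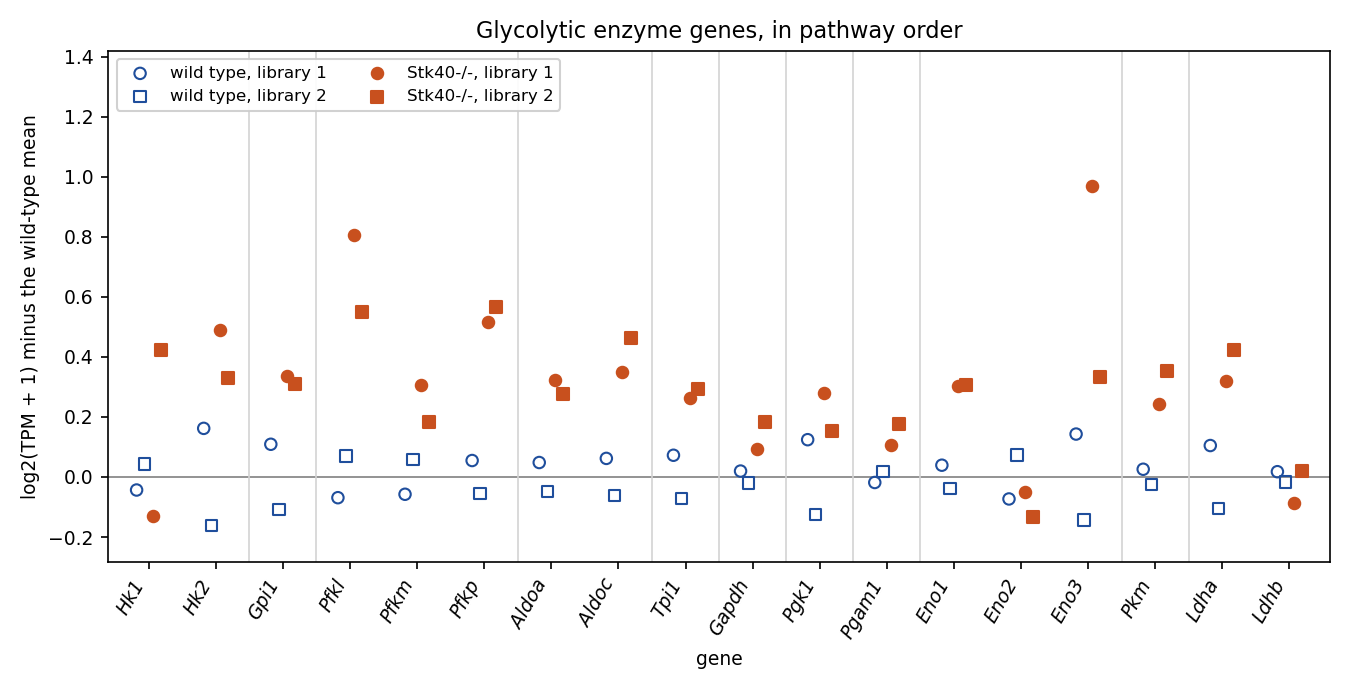
Level of the 18 glycolytic enzyme genes in each library, as log2(TPM + 1) minus the mean of the 2 wild-type libraries (vertical axis), with genes in pathway order (horizontal axis) and grey lines between steps; open symbols are wild type and filled symbols Stk40-/- libraries. The filled symbols lie above the open ones in 15 genes and overlap them in Hk1, Eno2 and Ldhb.

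Promoter sequences are shown because HIF is known to act on many of these genes through its core motif. Promoter windows from RefSeq on GRCm38.p6 matched 38 of the 42 genes. Slc2a3, Epas1, Bnip3l and Ndrg1 were not matched. For the 6 matched genes with the smallest unadjusted p, the 250 bases before the most upstream RefSeq start are printed 5′ to 3′ on the strand of the gene. Capitals mark ACGTG or GCGTG, or their reverse complements CACGT and CACGC where the motif is on the other strand, and CACGTG counts as an ACGTG on each strand.
Slc16a3, chr11:120948817-120949066, plus strand: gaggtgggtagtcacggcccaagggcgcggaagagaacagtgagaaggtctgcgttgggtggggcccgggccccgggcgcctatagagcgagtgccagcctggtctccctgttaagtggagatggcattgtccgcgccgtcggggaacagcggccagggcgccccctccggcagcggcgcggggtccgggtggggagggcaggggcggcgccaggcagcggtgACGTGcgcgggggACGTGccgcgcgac
Eno1, chr4:150236458-150236707, plus strand: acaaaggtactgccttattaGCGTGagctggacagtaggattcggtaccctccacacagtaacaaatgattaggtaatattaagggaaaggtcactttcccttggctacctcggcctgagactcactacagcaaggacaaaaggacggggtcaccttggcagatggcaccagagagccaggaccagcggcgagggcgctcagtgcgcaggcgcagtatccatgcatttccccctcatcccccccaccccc
Pfkl, chr10:78009808-78010057, minus strand: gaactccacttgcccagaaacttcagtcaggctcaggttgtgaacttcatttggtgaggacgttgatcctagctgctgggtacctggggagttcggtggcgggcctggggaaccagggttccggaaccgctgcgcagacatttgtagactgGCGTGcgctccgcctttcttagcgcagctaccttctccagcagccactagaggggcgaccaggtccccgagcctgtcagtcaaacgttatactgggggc
Bnip3, chr7:138909507-138909756, minus strand: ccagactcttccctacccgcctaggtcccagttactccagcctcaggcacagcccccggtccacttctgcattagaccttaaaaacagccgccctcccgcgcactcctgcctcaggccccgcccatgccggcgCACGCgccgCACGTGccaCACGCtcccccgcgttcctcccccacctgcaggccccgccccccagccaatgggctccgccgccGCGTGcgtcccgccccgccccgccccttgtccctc
Adm, chr7:110627407-110627656, plus strand: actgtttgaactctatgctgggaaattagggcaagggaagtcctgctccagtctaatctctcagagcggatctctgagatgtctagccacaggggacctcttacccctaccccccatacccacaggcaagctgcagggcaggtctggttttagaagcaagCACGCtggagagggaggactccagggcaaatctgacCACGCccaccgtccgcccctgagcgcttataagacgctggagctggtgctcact
Aldoa, chr7:126800448-126800697, minus strand: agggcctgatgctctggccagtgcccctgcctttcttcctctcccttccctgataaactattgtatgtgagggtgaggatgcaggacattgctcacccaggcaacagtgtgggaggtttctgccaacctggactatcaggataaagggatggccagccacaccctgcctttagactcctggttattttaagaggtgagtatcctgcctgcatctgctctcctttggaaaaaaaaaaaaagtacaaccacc

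By GENCODE positions the windows of Slc16a3, Pfkl and Aldoa lie inside the gene, past its annotated start, and that of Bnip3 does in part. These windows are thus upstream only of the RefSeq start. Slc16a3 held ACGTG on its own strand 27 and 14 bases before that RefSeq start (first base of each). Bnip3 held 2 ACGTG motifs that overlap in the palindrome and 3 GCGTG motifs, Adm held 2 GCGTG on the opposite strand, and Pfkl and Eno1 1 GCGTG each. The window of Aldoa held neither, but Aldoa has 3 RefSeq windows, 2 of which hold ACGTG, and gene-level TPM does not tell which start was used. Over the most upstream window of each gene, ACGTG occurred in 19 of 38 members, in 21.6% of 10435 tested genes with a window and in 16.5% of all 27025 genes in the promoter table. GCGTG occurred in 55.3%, 45.7% and 28.3%, in the same order. The median GC content was 62.8% in members, 60% in tested genes and 52.0% in all genes. ACGTG was present in 5 of 18 enzymes and in 6 of 10 matched hypoxia targets. Among members whose Stk40-/- libraries lay above wild type 12 of 25 held ACGTG, and among those with overlapping groups 7 of 12 did. A match is a description of sequence and was not tested as a binding site.

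The first steps trap and rearrange glucose. Hk2, the hexokinase isozyme that is induced in growing cells, had wild-type values of 38.6 and 30.6 TPM and Stk40-/- values of 48.7 and 43.5 TPM (log2 fold change 0.41, SE 0.16, limma adjusted p = 0.460). Hk1, the broadly expressed isozyme, showed 13.8 and 14.7 TPM in wild type, compared with 12.9 and 19.4 TPM in the Stk40-/- libraries, so its groups overlapped and the Stk40-/- libraries lay on either side of wild type. Gpi1, which converts glucose 6-phosphate to fructose 6-phosphate, measured 422 and 362 TPM in wild type against 494 and 485 TPM in mutant cells. The gap between the groups of Gpi1 was 0.20 on the log2 scale, and the wild-type libraries differed by 0.22. Without wild-type library 2 the log2 fold change was 0.25 for Hk2 and 0.21 for Gpi1, beside 0.41 and 0.32 over all 4 libraries.

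Phosphofructokinase, the main control point of the pathway, showed the largest relative difference of the 11 steps. Pfkl (ENSMUSG00000020277.10; GRCm38 chromosome 10, 77986947 to 78010083, minus strand), the liver-type subunit, had wild-type values of 88.6 and 97.6 TPM and Stk40-/- values of 163 and 137 TPM. Its log2 fold change was 0.68 (SE 0.12, limma adjusted p = 0.299), and with 1 library left out it ran from 0.55 to 0.81. Both other subunits were also higher without overlap, though at a lower level. Pfkm, the muscle-type subunit, showed 24.0 and 26.1 TPM in wild type, compared with 31.2 and 28.5 TPM in the Stk40-/- libraries. Pfkp, the platelet-type subunit, measured 22.2 and 20.5 TPM in wild type against 30.9 and 32.0 TPM in mutant cells. Pfkp shares 748 exonic bases with Pitrm1 on the opposite strand, and Pitrm1 had wild-type values of 68.1 and 75.6 TPM and Stk40-/- values of 96.1 and 87.1 TPM. No source used here says that strand was used in quantification, so reads from this stretch may have been credited to either gene. Added together, the 3 subunits were at 139 ± 6.64 TPM (SD, n = 2) in wild type and at 211 ± 19.9 TPM (SD, n = 2) in Stk40-/- cells, a ratio of 1.52. Pfkl made up 65.7% and 67.7% of this sum in wild type and 72.5% and 69.3% in Stk40-/- cells, and Pfkm 17.8% and 18.1% against 13.8% and 14.5%. The subunit mixture thus held a smaller share of Pfkm in both Stk40-/- libraries.

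The following steps are catalysed by enzymes with some of the most abundant messengers of these cells. Aldoa, the main aldolase, ranked 105 by mean level among all genes, and showed 1355 and 1267 TPM in wild type, compared with 1638 and 1587 TPM in the Stk40-/- libraries (log2 fold change 0.30, SE 0.06, limma adjusted p = 0.312). Aldoc, the brain-type aldolase, contributed under 2% of the aldolase sum in each library (1.64% to 1.904%) and measured 23.1 and 21.1 TPM in wild type against 28.4 and 30.8 TPM in mutant cells. Tpi1, which interconverts the triose phosphates, had wild-type values of 394 and 357 TPM and Stk40-/- values of 451 and 459.7 TPM. In all 3 genes the lower Stk40-/- library lay above the higher wild-type library.

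Gapdh (ENSMUSG00000057666.18; chromosome 6, 125161715 to 125166467, minus strand), a common reference gene in expression assays, had the highest level of the 42 genes. It showed 3046 and 2964 TPM in wild type, compared with 3205 and 3411 TPM in the Stk40-/- libraries, a ratio of means of 1.10. Its log2 fold change of 0.14 (SE 0.05, limma adjusted p = 0.455) was small among the enzymes, and it was 0.07 under median-ratio scaling. Part of the Gapdh signal appeared under other names. Of 73 processed pseudogenes with at least 95% identity to its transcript over 300 or more bases, 2 carried nearly all of the level, Gm10359 (chromosome 5, 105862701 to 105863702) and Gm12671 (chromosome 4, 91851668 to 91852669), each identical to Gapdh over 1002 bases. Gm10359 measured 402 and 351 TPM in wild type against 566 and 590.0 TPM in mutant cells, and Gm12671 had values within 0.2 TPM of these in every library. The 73 copies together made up 21.4% and 19.8% of the joint level in wild type and 26.5% and 26.1% in Stk40-/- cells. With the copies added, Gapdh had wild-type values of 3875 and 3697 TPM and Stk40-/- values of 4360 and 4617 TPM, and the log2 fold change went to 0.25 (limma adjusted p = 0.338, the range over all alternatives being 0.338 to 0.738). This alternative was chosen after the values were seen. Reads from sequences this alike cannot be assigned with certainty, so the size of the Gapdh difference depends on how they were divided. No other enzyme had copies that reached 2% of its level in any library.

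Pgk1, which forms the first ATP of the pathway, showed 859 and 723 TPM in wild type, compared with 957 and 877 TPM in the Stk40-/- libraries. The wild-type libraries differed from each other more than the group means did, and the groups were separated by 0.03 on the log2 scale. Pgk1 lies on the X chromosome (106187100 to 106203699), as does the kinase gene Pdk3. The 575 tested X-linked genes had a median log2 fold change of 0.05 and autosomal genes 0.07, while 60 tested genes within 5 Mb of Pgk1 had a median of 0.13, beside 0.22 for Pgk1 itself. The 24 tested genes within 5 Mb of Pdk3 likewise had a median of 0.13, near the 0.15 of Pdk3 itself. Pgam1, the mutase of the next step, measured 652 and 669 TPM in wild type against 710.1 and 746 TPM in mutant cells. The separation of Pgk1 and Pgam1 was lost under median-ratio scaling. Pgk1 then had a log2 fold change of 0.15 and Pgam1 of 0.07. Without wild-type library 2 that of Pgk1 was 0.092.

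Enolase, the step that makes phosphoenolpyruvate, is encoded by 3 genes. Eno1 (ENSMUSG00000063524.13; chromosome 4, 150236721 to 150248879, plus strand), the ubiquitous isozyme and 98.0% to 98.7% of the enolase sum, had wild-type values of 2286 and 2165 TPM and Stk40-/- values of 2746 and 2749 TPM. Its log2 fold change was 0.30 (SE 0.05, limma adjusted p = 0.268). Eno3, the muscle isozyme, showed 25.9 and 21.1 TPM in wild type, compared with 46.7 and 29.7 TPM in the Stk40-/- libraries, with the Stk40-/- libraries far apart from each other (log2 fold change 0.65, and 0.33 without Stk40-/- library 1). Eno2, the neuronal isozyme, measured 8.21 and 9.19 TPM in wild type against 8.36 and 7.82 TPM in mutant cells (log2 fold change -0.09, SE 0.17), and its groups overlapped.

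Pkm, the pyruvate kinase gene whose M2 splice form is typical of proliferating cells, had wild-type values of 1648 and 1591 TPM and Stk40-/- values of 1916 and 2067 TPM (log2 fold change 0.30, SE 0.06, limma adjusted p = 0.316). Gene-level TPM does not separate its splice forms, and 767 exonic bases are shared with AC160637.1, which lay between 20.6 and 37.7 TPM. Ldha, the subunit that favours lactate formation, showed 979 and 846 TPM in wild type, compared with 1137 and 1220.0 TPM in the Stk40-/- libraries (log2 fold change 0.37, SE 0.09, limma adjusted p = 0.388). Ldhb, the subunit that favours pyruvate formation, measured 178 and 174 TPM in wild type against 165 and 178 TPM in mutant cells, so its groups overlapped. Ldha made up 84.6% and 83.0% of the lactate dehydrogenase sum in wild type and 87.3% and 87.3% in Stk40-/- cells. The share of Ldha was higher in both Stk40-/- libraries than in either wild-type library.

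Summed over isozymes, each of the 11 steps was higher in both Stk40-/- libraries, though not for Pgk1 and Pgam1 under median-ratio scaling. The ratio of the Stk40-/- to the wild-type mean was between 1.10 for Gapdh and for Pgam1 and 1.27 for hexokinase in 10 of the steps, and 1.52 for phosphofructokinase. The 18 genes together accounted for 1.21% and 1.14% of all TPM in wild type and for 1.38% and 1.41% in Stk40-/- cells, a ratio of 1.19 that was 1.21 with the pseudogene copies added and 1.22 without Gapdh. An exact permutation test of 2 against 2 libraries cannot give a two-sided p below 0.333, so no call is made on these sums. Of the 18 enzymes, 14 had a genotype difference larger in size than either replicate difference, against a background of 31.2% of all tested genes and 45.3% of those averaging 100 TPM or more.

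The gene with the smallest p of the whole list belongs to lactate export. Slc16a3 (ENSMUSG00000025161.16; chromosome 11, 120948480 to 120960868, plus strand), which encodes the monocarboxylate transporter MCT4 of highly glycolytic cells, had wild-type values of 328 and 302 TPM and Stk40-/- values of 546 and 523 TPM. Its log2 fold change was 0.76 (SE 0.07), and its limma adjusted p = 0.165 was the smallest among the 42 genes. Left-out libraries moved the fold change only between 0.70 and 0.82, and its adjusted p lay between 0.154 and 0.630 over the alternatives. Slc16a1, which encodes the more widely expressed MCT1, showed 71.8 and 79.1 TPM in wild type, compared with 81.1 and 77.8 TPM in the Stk40-/- libraries, so its groups overlapped. Slc16a3 made up 82.1% and 79.2% of the sum of both transporters in wild type and 87.1% and 87.1% in Stk40-/- cells.

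Glucose import did not show this separation. Slc2a1, which encodes the glucose transporter GLUT1, measured 589.9 and 387 TPM in wild type against 618 and 505 TPM in mutant cells. Slc2a3, which encodes the high-affinity transporter GLUT3, had wild-type values of 752 and 505 TPM and Stk40-/- values of 795 and 483 TPM. In both genes library 1 was higher than library 2 in each genotype, and the difference between replicates was larger than that between genotypes. The log2 fold change of Slc2a3 was 0.01 (SE 0.32), and it was -0.061 under median-ratio scaling. That of Slc2a1 was 0.22 (SE 0.24), and it was -0.079 without wild-type library 2.

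Of the 4 kinases that steer flux, 1 lay above wild type in both Stk40-/- libraries, 1 below, and 2 had overlapping groups. The share above, 25.0%, was near the background of 27.5%, and the background below was 16.6%. Pfkfb3, which makes the phosphofructokinase activator fructose 2,6-bisphosphate, showed 33.3 and 19.98 TPM in wild type, compared with 40.5 and 26.1 TPM in the Stk40-/- libraries, again higher in library 1 of each genotype. Pfkfb4, of the same gene family, measured 5.27 and 5.26 TPM in wild type against 4.16 and 3.24 TPM in mutant cells. It was 1 of the 2 genes whose Stk40-/- libraries lay below wild type (log2 fold change -0.42, SE 0.23, and -0.28 without Stk40-/- library 2). Pdk1, a kinase that shuts off pyruvate dehydrogenase and is a HIF target, had wild-type values of 72.2 and 56.0 TPM and Stk40-/- values of 73.2 and 66.6 TPM, with overlapping groups. Pdk3 showed 42.1 and 37.1 TPM in wild type, compared with 44.9 and 42.7 TPM in the Stk40-/- libraries, separated by 0.02 on the log2 scale. That separation of Pdk3 was lost under median-ratio scaling, where its log2 fold change was 0.08 in place of 0.15, and without wild-type library 2 it was 0.058.

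**Figure D2:**
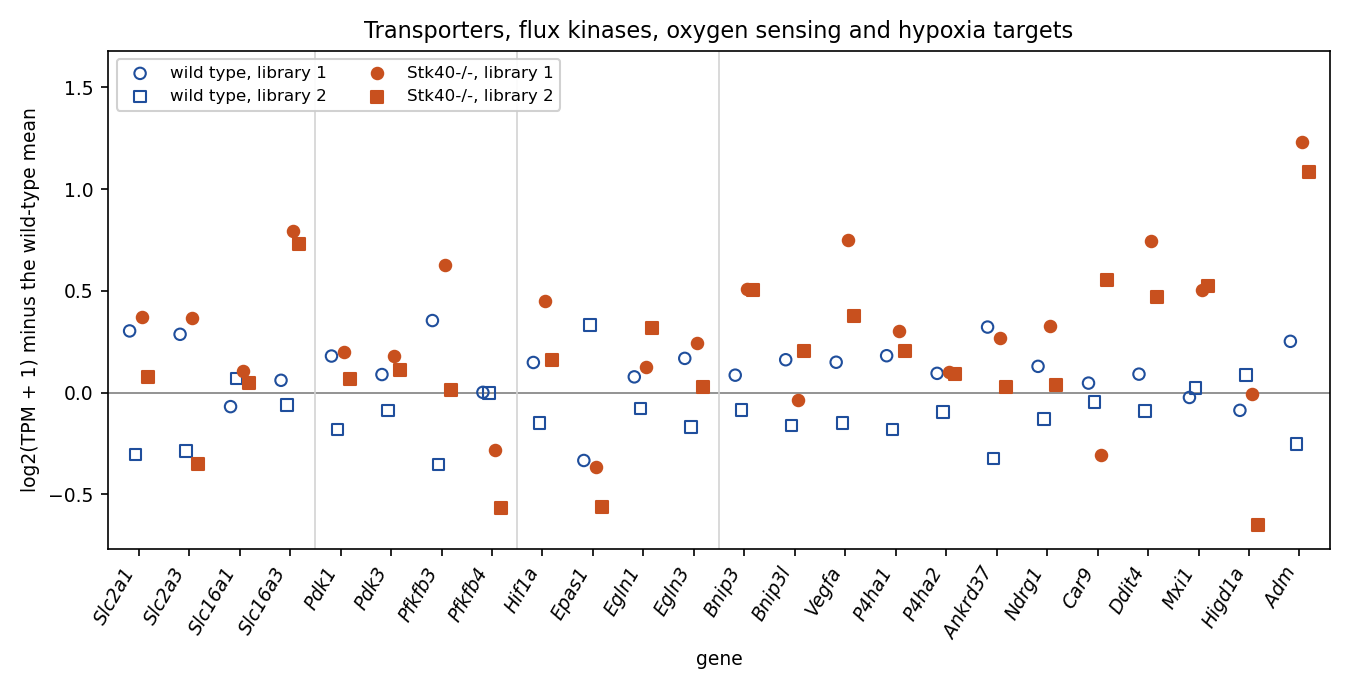
Level of the 24 genes outside the enzyme steps in each library, as log2(TPM + 1) minus the mean of the 2 wild-type libraries (vertical axis), by gene (horizontal axis), with grey lines between transporters, flux kinases, oxygen sensing and hypoxia targets; open symbols are wild type and filled symbols Stk40-/- libraries. Slc16a3 and Adm stand clear of wild type, whereas the glucose transporters Slc2a1 and Slc2a3 spread as widely within a genotype as between them.

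Among the oxygen sensing genes, the 2 HIF alpha subunits had opposite signs at very different levels. Hif1a measured 65.7 and 53.3 TPM in wild type against 81.3 and 66.2 TPM in mutant cells, with groups separated by 0.01 on the log2 scale (log2 fold change 0.31, SE 0.16, limma adjusted p = 0.563). The fold change of Hif1a was 0.16 without wild-type library 2 and likewise 0.16 without Stk40-/- library 1. Epas1, which encodes HIF2 alpha, had wild-type values of 1.12 and 2.36 TPM and Stk40-/- values of 1.07 and 0.806 TPM. Its log2 fold change was -0.46 (SE 0.45), -0.13 without wild-type library 2, -0.80 without wild-type library 1, and -0.75 and -0.80 with pseudocounts of 0.1 and 0.01 TPM in place of 1. It was the second gene with both Stk40-/- libraries below wild type. Epas1 lay near the expression filter, and its wild-type libraries differed by more than the genotypes did. Hif1a shares 330 exonic bases with the antisense gene Gm15283, which lay between 0.837 and 4.55 TPM. HIF alpha subunits are controlled mainly as proteins, which were not analysed here. Egln1, the main oxygen-sensing hydroxylase, showed 29.1 and 26.0 TPM in wild type, compared with 30.2 and 34.6 TPM in the Stk40-/- libraries. Egln3, a hydroxylase gene that HIF itself induces, measured 52.2 and 41.2 TPM in wild type against 55.1 and 47.3 TPM in mutant cells, with overlapping groups. The log2 fold change of Egln1 was 0.22, and 0.13 without Stk40-/- library 2. The separation of Hif1a and Egln1 was lost under median-ratio scaling.

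The 12 hypoxia targets split into genes with and without separation. In 6 of the 12 the Stk40-/- values were all above the wild-type values, in 0 all below, against backgrounds of 27.5% and 16.6%, and the median log2 fold change was 0.22. Under median-ratio scaling 5 of the 12 lay above. Without wild-type library 1 this median was 0.45, and without wild-type library 2 it was 0.076, so the size for the list rested on which wild-type library was used. Adm (ENSMUSG00000030790.15; chromosome 7, 110627661 to 110629820, plus strand), which encodes the vasodilator peptide adrenomedullin, had the largest fold change of the 42 genes. It had wild-type values of 13.2 and 8.996 TPM and Stk40-/- values of 26.9 and 24.2 TPM (log2 fold change 1.16, SE 0.22, limma adjusted p = 0.309), and 0.91 to 1.41 with 1 library left out. Both Stk40-/- libraries were well above the higher wild-type library.

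Ddit4 (chromosome 10, 59949669 to 59951834, minus strand), which encodes the mTORC1 inhibitor REDD1 and responds to several stresses, showed 231 and 203 TPM in wild type, compared with 363 and 300.3 TPM in the Stk40-/- libraries (log2 fold change 0.61, SE 0.13, limma adjusted p = 0.334). Bnip3 (chromosome 7, 138890836 to 138909519, minus strand), a mitophagy receptor gene, measured 107 and 95.2 TPM in wild type against 144 and 144 TPM in mutant cells (log2 fold change 0.51, SE 0.09, limma adjusted p = 0.306). Its relative Bnip3l had wild-type values of 149.6 and 119 TPM and Stk40-/- values of 130.4 and 154 TPM, with overlapping groups. Bnip3 made up 41.8% and 44.4% of the sum of the pair in wild type and 52.5% and 48.2% in Stk40-/- cells. As with lactate dehydrogenase and the lactate transporters, the share of 1 of the pair was thus higher in both Stk40-/- libraries. Shares were also separated for aldolase and for Pfkfb3 with Pfkfb4. For enolase the share of Eno2 was separated, at 0.35% and 0.42% in wild type against 0.30% and 0.28% in Stk40-/- cells. Those of Eno1 and Eno3 overlapped. Of the phosphofructokinase shares, those of Pfkl and Pfkm were separated and that of Pfkp overlapped. Shares overlapped for Hk1 with Hk2, Slc2a1 with Slc2a3, Pdk1 with Pdk3 and Egln1 with Egln3. No background was computed for such shares.

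Vegfa, the principal growth factor of blood vessels, showed 26.5 and 21.4 TPM in wild type, compared with 40.8 and 31.2 TPM in the Stk40-/- libraries (log2 fold change 0.56, SE 0.19, limma adjusted p = 0.445). Mxi1, which encodes an antagonist of MYC, measured 3.91 and 4.08 TPM in wild type against 6.08 and 6.17 TPM in mutant cells, a small but close-set pair of groups. P4ha1, a collagen prolyl hydroxylase subunit, had wild-type values of 25.8 and 19.9 TPM and Stk40-/- values of 28.2 and 26.3 TPM, separated by 0.02 on the log2 scale. Under median-ratio scaling the groups of P4ha1 overlapped, and without wild-type library 2 its log2 fold change was 0.073 in place of 0.25.

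The other hypoxia targets had overlapping groups. P4ha2, the second collagen hydroxylase subunit of the list, ranged from 26.1 to 30.04 TPM over the 4 libraries. Ankrd37, a frequently used hypoxia marker gene, showed 19.3 and 11.97 TPM in wild type, compared with 18.5 and 15.5 TPM in the Stk40-/- libraries. Ndrg1 measured 15.6 and 12.9 TPM in wild type against 18.1 and 14.6 TPM in mutant cells. Both were higher in library 1 of each genotype. Car9, which encodes the cell surface carbonic anhydrase IX and is among the most specific HIF1 targets, had wild-type values of 11.1 and 10.4 TPM and Stk40-/- values of 8.52 and 16.3 TPM, with 1 Stk40-/- library below and the other above wild type. An antisense gene that shares 214 exonic bases with Car9, Gm12454, showed 2.45 and 2.40 TPM in wild type, compared with 2.11 and 7.47 TPM in the Stk40-/- libraries. Higd1a, a mitochondrial inner membrane protein gene, measured 32.8 and 37.1 TPM in wild type against 34.8 and 21.9 TPM in mutant cells (log2 fold change -0.33, SE 0.25), so its groups overlapped. The negative value came mostly from Stk40-/- library 2, without which it was -0.0045.

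The replicates of a genotype differed in these genes as well. Wild-type library 1 was above library 2 in 33 of the 42 genes (78.6%), against a background of 53.0%, with a median log2 difference of -0.16 from library 1 to library 2 beside -0.02 over all tested genes. Over the 12 hypoxia targets this median was -0.22, as large in size as the genotype median of 0.22, and over the 18 enzymes it was -0.09 beside 0.30. Stk40-/- library 1 was above library 2 in 28 of the 42 genes (66.7%), against a background of 54.0%. Among the hypoxia targets 5 of 12 had a genotype difference larger than either replicate difference, and among the transporters 1 of 4, against a background of 31.2%. The streak marker sum also differed between the wild-type libraries, as given above, and library 1 had the higher value there too.

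**Figure D3:**
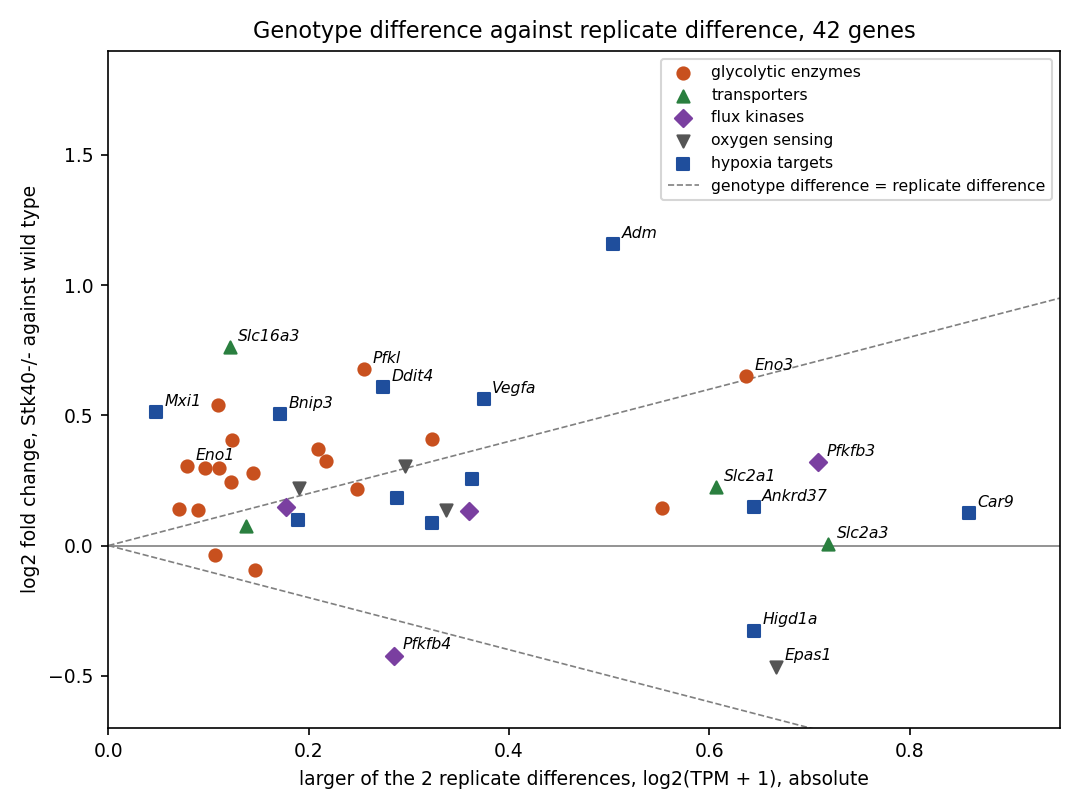
Log2 fold change between genotypes (vertical axis) against the larger of the 2 absolute replicate differences (horizontal axis), both on log2(TPM + 1), with 1 point per gene and shapes and colours by role; on the dashed lines both differences are equal in size. Most glycolytic enzymes and Slc16a3, Adm, Bnip3, Ddit4, Vegfa and Mxi1 lie above the upper line, and Slc2a1, Slc2a3, Pfkfb3, Ankrd37 and Car9 lie well between the lines.

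The wider pathway was described from lists that do not share genes with the 42. Their members are read against the same backgrounds of 27.5% above and 16.6% below without overlap, and 0 passed limma adjusted over all genes. Of 27 tested further hypoxia targets 9 lay above and 3 below, with a median log2 fold change of 0.09. Ero1l, an oxidase of protein folding, had wild-type values of 48.6 and 46.1 TPM and Stk40-/- values of 57.9 and 58.6 TPM. Stc2, a secreted glycoprotein gene, showed 9.43 and 6.82 TPM in wild type, compared with 11.9 and 14.4 TPM in the Stk40-/- libraries. Plod2, a collagen lysyl hydroxylase gene, and the cytokine gene Mif also lay above (log2 fold changes 0.39 and 0.17). The share above in this list, 33.3%, was near the background.

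Of 12 other genes of the HIF machinery 3 lay above and 3 below, with a median of 0.00. Arnt2, a partner subunit of HIF alpha, measured 6.48 and 6.74 TPM in wild type against 9.93 and 11.7 TPM in mutant cells. The coactivator gene Ep300 and the little-expressed Hif3a lay above too (log2 fold changes 0.40 and 0.34), and Elob, a subunit of the VHL ubiquitin ligase, below (-0.14). Among the 15 tested genes of 23 other isozymes, regulators and transporters of glycolysis 5 lay above and 1 below. The one below was Mpc1, a subunit of the carrier that brings pyruvate into mitochondria, with 43.8 and 26.8 TPM in wild type against 15.4 and 17.9 TPM in mutant cells (log2 fold change -1.01, SE 0.27, limma adjusted p = 0.401). Its partner subunit Mpc2, named here after its value was seen, had wild-type values of 18.8 and 12.1 TPM and Stk40-/- values of 11.9 and 12.2 TPM, with overlapping groups. Pfkfb1, the liver-type relative of Pfkfb3 and X-linked, showed 19.8 and 20.4 TPM in wild type, compared with 27.7 and 27.97 TPM in the Stk40-/- libraries. Pdk2 and Bpgm lay above as well (log2 fold changes 0.56 and 0.26).

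Routes that branch from glycolysis or follow it gave mixed counts. Of 21 tested genes of pyruvate dehydrogenase and the tricarboxylic acid cycle 5 lay above and 3 below, with a median of 0.01. The mitochondrial malate dehydrogenase gene Mdh2 measured 347 and 354 TPM in wild type against 297 and 310 TPM in mutant cells, and Sdhd lay below as well (-0.11), whereas Idh3a and Dlst lay above (0.18 and 0.13). Of 7 pentose phosphate genes 2 lay above and 1 below, with a median of -0.01; Tkt and Rpia lay above (0.14 and 0.39), Rpe below (-0.32), and Pgls overlapped (-0.11). Of 10 glycogen genes 6 lay above and 2 below, with a median of 0.14; the phosphoglucomutase genes Pgm2 and Pgm1 (0.30 and 0.35) and the phosphorylase gene Pygb (0.19) lay above, and the branching enzyme gene Gbe1 below (-0.41). Gbe1 lies on chromosome 16, whose 463 tested genes had a median of -0.17. Of 6 tested genes of serine synthesis and gluconeogenesis 2 lay above and 0 below, with a median of 0.13; these were Psat1 and Shmt2 (0.15 and 0.21), while Psph and Shmt1 overlapped (0.16 and -0.09).

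**Figure D4:**
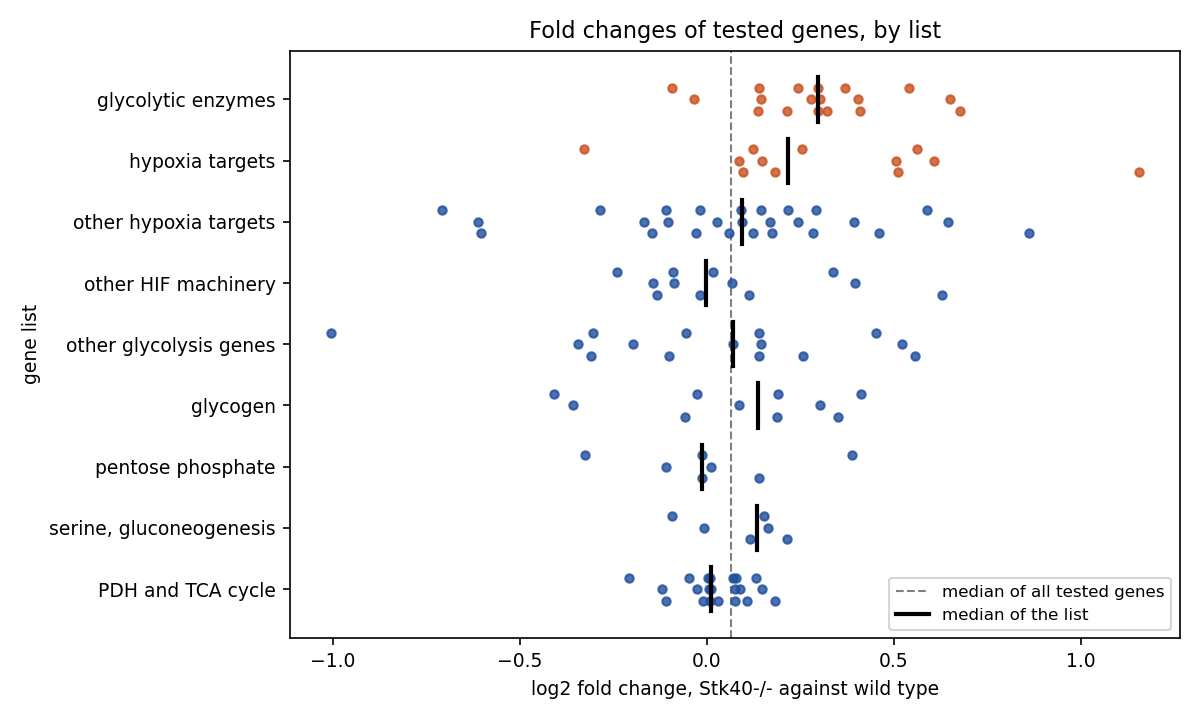
Log2 fold change of each tested gene between Stk40-/- and wild type (horizontal axis) by gene list (vertical axis), with 1 point per gene, black bars at the list medians and a dashed line at the median of all tested genes; points are offset vertically only to separate them. The medians of the enzymes (0.30) and hypoxia targets (0.22) lie to the right of the dashed line (0.07), and that of pyruvate dehydrogenase and the tricarboxylic acid cycle (0.01) close to it.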

How the data were processed

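Polyadenylated RNA of 4 libraries was read in pairs of 100 or 150 bases on 1 of 2 instruments, per the labels' protocols. The instrument of each library was not given in the sources used here, so a batch could not be modelled. The deposited values are TPM per gene, per the file headers. The authors named CASAVA 1.7, Salmon 0.8.2 and build hg38, per the submitters' processing notes. The gene IDs are mouse Ensembl IDs, and their annotation was not given in the sources used here. Each column sums to 1000000, so depth and counting error are unknown. A rise of some genes lowers the TPM of others. There were 0 per-sample columns left unused.

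Groups came from the sample titles. Genes averaging 1 or more TPM entered limma 3.58.1 (R 4.3.3) as log2(TPM + 1) (empirical Bayes with an intensity trend, no block, Benjamini-Hochberg over all tested genes, threshold 0.05). The code was run on simulated data with independent noise. That simulation held no shifts shared by the genes of a library, so it does not cover them. Positions came from GENCODE vM21 on GRCm38, by ID, and copies from blastn 2.17.0. The members and lists were chosen with earlier results of these data known. All 42 members are named, with up to 4 genes of the smallest unadjusted p from each pathway list.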

Additional observations from a re-analysis of the deposited data

How the results depend on the processing

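In limma 0 of all tested genes and 0 members passed under any of the 12 alternatives, with smallest adjusted p values over all genes from 0.0694 to 0.319. The fold change of 32 of the 42 members kept its sign in all alternatives. In 9 others the sign turned only when 1 library was left out. The filters, the intensity trend and the replicate block leave each fold change as it is, so they could not turn a sign. In the 25 members above and 2 below without overlap, neither a left-out library nor a changed pseudocount could turn it. For most of the 32 the kept sign was thus fixed in advance under those alternatives and adds nothing to the separation. With 1 library left out the log2 fold change ran from -0.032 to 0.68 for Pfkfb3, -0.048 to 0.31 for Pdk1, -0.079 to 0.53 for Slc2a1, -0.17 to 0.47 for Ankrd37, -0.033 to 0.30 for Egln3 and -0.076 to 0.25 for Bnip3l, each lowest without wild-type library 2. It ran from -0.35 (without Stk40-/- library 1) to 0.37 for Slc2a3, which had -0.28 without wild-type library 2. It ran from -0.088 to 0.019 (without Stk40-/- library 1) for Ldhb, and from -0.30 to 0.55 for Car9 and -0.13 to 0.42 for Hk1, both lowest without Stk40-/- library 2, where Bnip3l had -0.03. Under median-ratio scaling Slc2a3 had -0.061, the enzyme median was 0.23 and that of the hypoxia targets 0.16, and 19 members lay above and 4 below without overlap, beside 25 and 2 as deposited; the background became 20.6% above and 21.9% below. That scaling moved the median of all genes to 0.00. The 2 genes then added below were Eno2 and Ldhb. The count below was 0 with a filter at a mean of at least 5 TPM, which removed Pfkfb4 and Epas1. With 1 library left out, 26 to 33 members lay above and 3 to 5 below. Separation is easier with fewer libraries, and the matching share over all tested genes was not computed. These counts therefore cannot be set against a background. The enzyme median ran from 0.25 to 0.35 with 1 library left out, and that of the hypoxia targets from 0.076 to 0.45. The lone library is then assumed to vary like the others. With the replicate number as a block, 0 genes passed in limma (smallest adjusted p = 0.262). The counts of separated members rest on the TPM values alone, so a block cannot change them. The deviations of same-numbered libraries correlated at 0.09 over genes, and the labels tie the numbers to nothing shared. The causes of these differences were not tested. TPM keeps no depth, so the precision of single values, above all of low genes such as Epas1, is unknown.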
